A study of Mus musculus with 9 samples.

Results

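The 10 genes described here are the transcription factor gene Atf4, 6 genes of the stress response it controls (Atf3, Ddit3, Trib3, Chac1, Sesn2 and Asns), and the 3 enzyme genes of serine synthesis (Phgdh, Psat1 and Psph). They were chosen by name from a table of 21898 genes measured in mouse liver. The names matched 11 rows, because Ddit3 was listed under 2 identifiers. The row ENSMUSG00000116429 had 0 counts in all 9 libraries, so Ddit3 is reported from the row ENSMUSG00000025408. All 10 genes passed the filter on low counts, which left 13200 genes for testing.

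The liver RNA came from C57BL/6 mice, labelled wild type in the normal group, that had been assigned at random to 3 groups of 3 libraries each. The normal group received saline. The model group ate an MCD diet, which lacks methionine and choline and causes fat to build up in the liver. Mice of the TA group, also on the MCD diet, were given tormentic acid, a plant triterpenoid, at a dose labelled high. The amount of tormentic acid, the length of the diet, the age and sex of the mice, and whether the model and TA groups were given saline or a vehicle are not given in the sources used here. Nothing in the labels ties a library to its own mouse, so the p-values cover the spread among the 9 libraries, which may be technical.

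ATF4 is the main effector of the integrated stress response. When amino acids run short, unfolded protein accumulates or haem is lacking, kinases phosphorylate the translation factor eIF2 alpha, which lowers protein synthesis in general but raises translation of the Atf4 mRNA. ATF4 protein is therefore controlled largely at translation, and the level of its mRNA need not follow its activity. The protein pairs with C/EBP and other bZIP factors on composite sites in genes for amino acid synthesis and transport, among them the enzymes that turn the glycolytic intermediate 3-phosphoglycerate into serine. In liver, serine supplies glycine, folate one-carbon units and, through transsulfuration, cysteine for glutathione. Methionine, which the MCD diet lacks, enters the same network through homocysteine.

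Of the 10 genes, 4 hold in a promoter window the core letters of the composite site, TGATGNAA, searched on both strands from 250 bases before to 50 bases after the RefSeq start on GRCm38.p6. They are shown because these are the letters by which ATF4 sites are usually recognised. The genes that hold them and the genes called on the diet also overlapped only in part. Each is written 5′ to 3′ on the gene's strand with the match in capitals. In Asns the match reads on the gene's own strand and lies from -23 to -16 relative to the start, in chr6:7693210-7693273 (minus strand). In Chac1, chr2:119351008-119351097 (plus strand), Atf3, chr1:191183395-191183484 (minus strand), and Trib3, chr2:152344028-152344057 (minus strand), it lies on the opposite strand. The match spans -193 to -186 in Chac1, -110 to -103 in Atf3, and bases 15 to 22 from the RefSeq start in Trib3. These RefSeq starts differ from the GENCODE M21 gene positions given below. By those positions the Trib3 match lies just before the gene, the Asns match lies within it, and the Atf3 stretch lies far inside the gene.
Asns: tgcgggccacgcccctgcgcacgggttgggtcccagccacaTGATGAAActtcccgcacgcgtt
Chac1: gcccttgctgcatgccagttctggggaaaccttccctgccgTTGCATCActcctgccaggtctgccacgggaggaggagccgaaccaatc
Atf3: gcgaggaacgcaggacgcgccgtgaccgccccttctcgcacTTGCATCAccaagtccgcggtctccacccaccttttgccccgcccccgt
Trib3: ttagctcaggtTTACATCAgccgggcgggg

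The same letters occurred in 1304 of 32851 mouse promoter windows, or 3.97%, against 4 of the 10 members. The background counts windows and the members are counted as genes, and a gene can have several windows, as Psat1 has 2. With 1 further base, TGATGNAAT, 317 windows (0.965%) held a match and 0 members did. The cyclic AMP response element TGACGTCA was found in 588 windows (1.79%) and the ER stress element in 39 (0.119%), in 0 members each. Windows further from the start were not searched, and a match shows letters, not binding.

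Counts per library summed to between 13710002 and 16475794. TMM scaling factors, which equalise the bulk of genes between libraries, were 0.833 ± 0.009 (SD, n = 3) in normal, 1.34 ± 0.137 in model and 0.900 ± 0.102 in TA livers. Without them the median gene would shift by 0.69 (log2) between model and normal and by -0.59 between TA and model, so every change below is relative to the bulk of genes, and calls that differ without TMM factors are named. Summed hepatocyte markers (8 genes, 0 at zero) ran from 103923 to 131622 CPM (a counts-per-million unit, here with TMM factors) in normal, 41601 to 68782 in model and 94588 to 128191 in TA livers. Summed macrophage markers (8 genes, 0 at zero) ran from 402 to 410, 2266 to 2670 and 1019 to 1442 CPM, and cholangiocyte markers (5 genes, 0 at zero) from 37.3 to 48.5, 109 to 520 and 114 to 375 CPM. In bulk tissue, fewer cells of a type and less RNA per cell cannot be told apart, and the part of these shifts in the members' changes was not tested.

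On the MCD diet 4 of the 10 genes rose: Atf3, Psat1, Trib3 and Ddit3. None fell, and the other 6 did not pass the test, among them Atf4 itself, whose model and normal livers overlapped on the TMM scale. Livers from mice also given tormentic acid had less Atf3 and Psat1 mRNA than model livers, whereas the values of Trib3 and Ddit3 overlapped between these groups. Against normal livers, Atf3 and Trib3 were still higher in the TA group, and Psat1 did not pass the test. In model against normal and in TA against model, the largest changes among the 10 were those of a transcription factor gene, Atf3, and of the middle enzyme of serine synthesis, Psat1.

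In numbers, 4 of 10 members were called higher and 0 lower in model against normal, by edgeR's quasi-likelihood test at an adjusted p under 0.05, and their median log2 fold change was 0.87. Of all 13200 genes, 25.4% were called higher and 22.6% lower, with a median of 0.00. In TA against model, 0 members were called higher and 2 lower (median -0.44), against 11.8% and 11.1% of all genes (median -0.01). In TA against normal, 2 were called higher and 0 lower (median 0.22), against 10.7% and 5.03% of all genes (median 0.03). The comparisons share libraries, the list counts that follow included, and are given side by side only. The zero counts were also 0 at an unadjusted p under 0.05 and with DESeq2 and limma-voom.

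**Figure D1:**
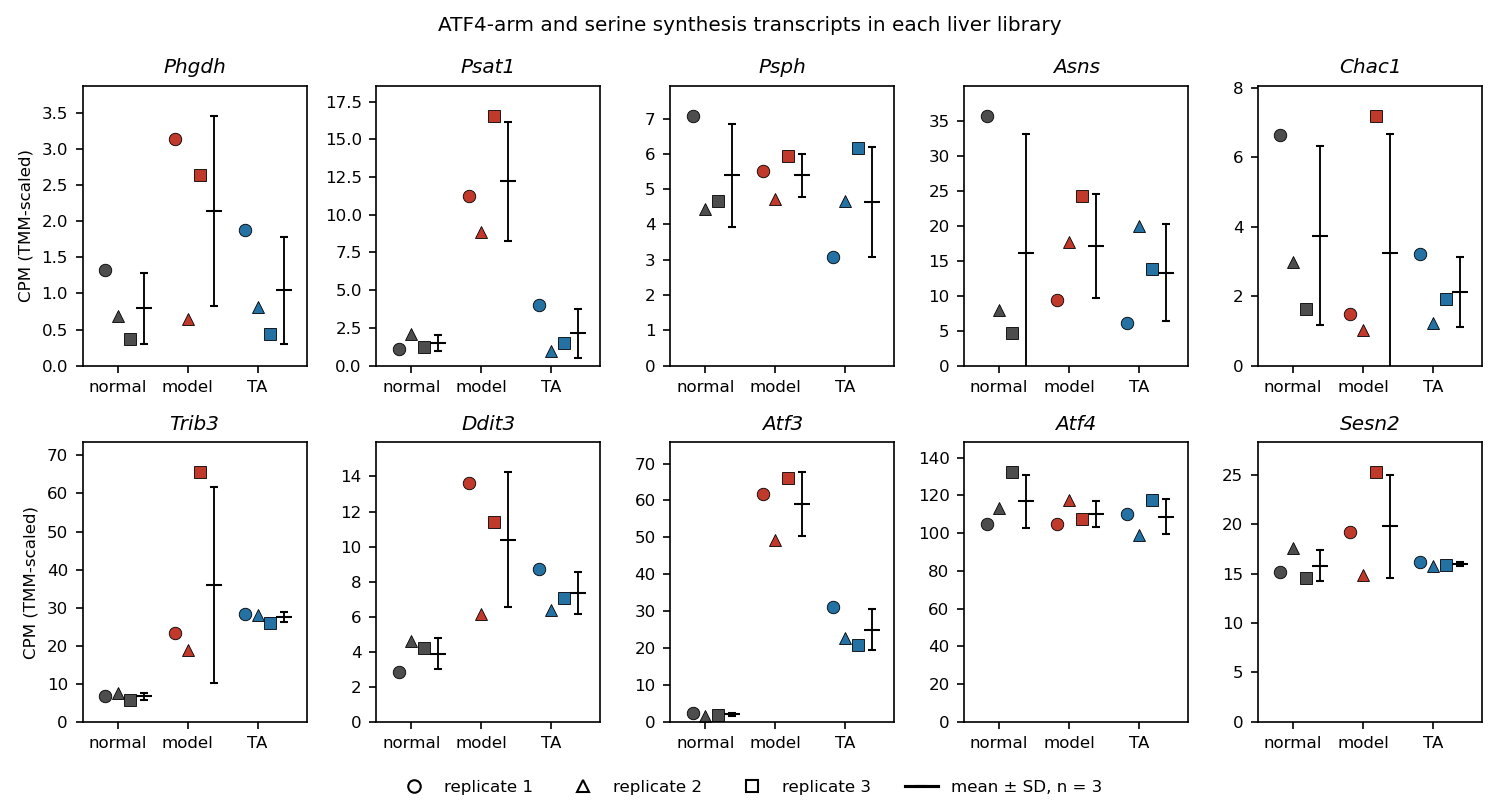
TMM-scaled CPM of each gene (y axis, linear, from 0, a different scale in each panel) in the 9 liver libraries by group (x axis); symbols are libraries and bars are mean ± SD (n = 3), cut at 0 in Asns (normal) and Chac1 (model). The 3 model libraries of Atf3 (49.4 to 66.1 CPM) and Psat1 (8.86 to 16.55 CPM) lie above all others, while Atf4 stays between 99.1 and 132 CPM in all groups.

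Atf4 (ENSMUSG00000042406; chr15:80255184-80257541, plus strand, GRCm38 as are all gene positions here) was the most abundant member per length in each of the 9 libraries. Its deposited FPKM, a level per kilobase and per library total, ran from 36.7 to 46.8 in normal, 59.2 to 65.4 in model and 37.5 to 46.9 in TA livers. On the TMM scale it stood at 105, 113 and 132 CPM in normal replicates 1 to 3, at 105, 118 and 108 CPM in model and at 110.1, 99.1 and 117 CPM in TA livers. All 3 groups overlapped on that scale. The log2 fold change was -0.09 ± 0.15 (SE) in model against normal (95% interval -0.41 to 0.24; adjusted p = 0.655), but 0.60 (adjusted p = 0.0067) without TMM factors. In TA against model it was -0.02 ± 0.15 (adjusted p = 0.950), and -0.59 (adjusted p = 0.0119) without them. Whether Atf4 mRNA rose thus depends on the scaling, which is why several members are also given below as a ratio to Atf4 within the same library, where scaling cancels.

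Atf3 (ENSMUSG00000026628; chr1:191170296-191218039, minus strand) encodes a stress-induced bZIP factor that mostly represses transcription and that ATF4 induces. It was nearly silent in normal livers, at 2.51, 1.70 and 1.93 CPM. Model livers had 61.6, 49.4 and 66.1 CPM, and TA livers had 31.2, 22.6 and 21.0 CPM. The 3 groups did not overlap, and the TA livers lay between the others. Atf3 was 28.6-fold higher in model than in normal livers (log2 fold change 4.84 ± 0.24, 95% interval 4.32 to 5.36, adjusted p = 4.26e-07). By size of rise it ranked 82 and by p-value 6 among the 13200 genes. In TA livers it was 2.36-fold lower than in model livers (log2 -1.24 ± 0.19, interval -1.65 to -0.83, adjusted p = 0.00265) and 12.1-fold higher than in normal ones (log2 3.60 ± 0.23, adjusted p = 8.27e-06). All 3 calls held under each of the 17 other ways of processing tried.

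Psat1 (ENSMUSG00000024640; chr19:15904678-15947337, minus strand) encodes phosphoserine aminotransferase, the second enzyme of serine synthesis. Normal livers had 1.11, 2.13 and 1.26 CPM. Model livers had 11.2, 8.86 and 16.55 CPM. TA livers had 3.99, 0.980 and 1.48 CPM, with TA replicate 1 above all normal livers and the other 2 inside or below their range. No TA library reached the lowest model library. Psat1 was 8.18-fold higher in model than in normal livers (log2 3.03 ± 0.48, interval 1.97 to 4.09, adjusted p = 0.000472). It was 5.52-fold lower in TA than in model livers (log2 -2.46 ± 0.46, interval -3.48 to -1.45, adjusted p = 0.00531), and -3.32 without TA replicate 1. TA against normal gave 0.57 ± 0.50 (adjusted p = 0.479), and -0.31 without TA replicate 1.

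Phgdh (ENSMUSG00000053398; chr3:98313170-98339990, minus strand) encodes phosphoglycerate dehydrogenase, the entry step, and was scarce. Normal livers had 1.33, 0.682 and 0.370 CPM, model livers 3.13, 0.652 and 2.64 CPM, and TA livers 1.87, 0.817 and 0.435 CPM. Model replicates 1 and 3 were high while model replicate 2 sat within the normal range, so the groups overlapped. The model libraries held 71, 12 and 61 raw counts, against 5 to 18 in normal livers. The log2 fold change of 1.43 ± 0.70 did not pass the test (interval -0.09 to 2.95, adjusted p = 0.110). It did so without model replicate 2 (1.84, adjusted p = 0.0288) and without TMM factors (2.17, adjusted p = 0.0285). In TA against model it was -1.0 ± 0.67 (adjusted p = 0.302).

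Psph (ENSMUSG00000029446; chr5:129765558-129787449, minus strand) encodes phosphoserine phosphatase, which releases serine in the last step. Its level was 7.07, 4.43 and 4.67 CPM in normal, 5.52, 4.73 and 5.93 CPM in model, and 3.08, 4.65 and 6.18 CPM in TA livers. The groups overlapped throughout, and both fitted changes were small, 0.00 ± 0.30 in model against normal (interval -0.66 to 0.66, adjusted p = 0.9997) and -0.23 ± 0.30 in TA against model (adjusted p = 0.613). Without TMM factors the latter became -0.85 (adjusted p = 0.0379). Psph overlaps a Cct6a transcript on the other strand over 452 exon bases, and whether counting used strand is not stated.

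Within the pathway, the ratio of Psat1 to Psph, in FPKM and free of library scaling, was 0.159, 0.489 and 0.275 in normal livers. It was 2.07, 1.91 and 2.84 in model livers and 1.32, 0.214 and 0.244 in TA livers. The 3 model libraries stood above all others, and TA replicate 1 stood apart from the other 2 TA libraries. Psph thus exceeded Psat1 per length in normal livers and the order was the reverse in the 3 model libraries and in TA replicate 1. The ratio of Psat1 to Phgdh was 0.487, 1.83 and 1.99 in normal, 2.09, 7.94 and 3.66 in model, and 1.24, 0.701 and 1.99 in TA livers. Phgdh thus stayed under Psat1 per length in each model library, and also in normal replicates 2 and 3 and TA replicates 1 and 3. Phgdh had only 5 counts in normal replicate 3 and in TA replicate 3.

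Trib3 (ENSMUSG00000032715; chr2:152337422-152344032, minus strand) encodes a pseudokinase that ATF4 and CHOP induce and that dampens ATF4 activity and AKT signalling. Normal livers had 6.71, 7.58 and 5.85 CPM. Model livers had 23.4, 18.8 and 65.6 CPM, with model replicate 3 far above the other 2, and TA livers had 28.4, 28.0 and 26.1 CPM. Model and TA livers overlapped and both lay above all normal livers. The log2 fold change was 2.42 ± 0.40 in model against normal (adjusted p = 0.000582), and 1.65 without model replicate 3. In TA against normal it was 2.04 ± 0.40 (adjusted p = 0.00580). TA against model gave -0.39 ± 0.37 (interval -1.19 to 0.42, adjusted p = 0.473), and 0.38 without model replicate 3, so the direction between model and TA livers rests on 1 library.

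Ddit3 (ENSMUSG00000025408; chr10:127290774-127296288, plus strand) encodes CHOP, a C/EBP-family factor linked to cell death under lasting ER stress. Its level was 2.87, 4.60 and 4.22 CPM in normal, 13.6, 6.14 and 11.4 CPM in model, and 8.70, 6.37 and 7.05 CPM in TA livers. All model and TA livers exceeded all normal ones, and model replicate 2 lay below all TA livers. Ddit3 rose 2.67-fold in model against normal (log2 1.42 ± 0.31, adjusted p = 0.00319). TA against model gave -0.49 ± 0.30 (adjusted p = 0.253), but -0.75 (adjusted p = 0.0476) without model replicate 2 and -1.09 (adjusted p = 0.0276) without TMM factors. In TA against normal it was 0.92 ± 0.31 and missed the threshold (adjusted p = 0.0681). It passed with DESeq2's Wald test (adjusted p = 0.0484) and without model replicate 2 (adjusted p = 0.0256). Ddit3 shares 68 exon bases with Mars on the other strand.

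Sesn2 (ENSMUSG00000028893; chr4:132492032-132510501, minus strand) encodes sestrin 2, a leucine-sensing restraint on TORC1. It stood at 15.2, 17.6 and 14.6 CPM in normal, 19.2, 14.8 and 25.3 CPM in model, and 16.2, 15.8 and 15.9 CPM in TA livers. The TA livers were nearly equal and inside the normal range, and model replicate 2 was too. The change was 0.33 ± 0.19 in model against normal (adjusted p = 0.181) and -0.31 ± 0.19 in TA against model (adjusted p = 0.266). Without TMM factors both passed, at 1.04 (adjusted p = 0.00374) and -0.91 (adjusted p = 0.0126), and without model replicate 2 the first gave 0.49 (adjusted p = 0.0423).

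Asns (ENSMUSG00000029752; chr6:7675169-7693254, minus strand), which encodes asparagine synthetase and is a classical ATF4 target, and Chac1 (ENSMUSG00000027313; chr2:119351229-119354381, plus strand), which encodes an enzyme that breaks down glutathione, varied more within groups than between them. Asns was at 35.7, 8.01 and 4.67 CPM in normal, 9.45, 17.7 and 24.2 CPM in model, and 6.16, 19.9 and 13.8 CPM in TA livers. Normal replicate 1 was the highest of the 9 libraries, 7.64 times normal replicate 3. Its change in model against normal was 0.08 ± 0.64 (interval -1.31 to 1.48, adjusted p = 0.923), and 1.43 (adjusted p = 0.0455) without normal replicate 1. Chac1 was at 6.63, 2.98 and 1.63 CPM in normal, 1.5, 1.03 and 7.19 CPM in model, and 3.2, 1.22 and 1.91 CPM in TA livers. Normal replicate 1 and model replicate 3 were high and the rest overlapped. The change was -0.20 ± 0.70 (adjusted p = 0.830) in model against normal, and it turned to 0.50 without normal replicate 1 and to -1.55 without model replicate 3, while its TA against model change of -0.61 turned to 0.74 without model replicate 3. The interval of Chac1 was -1.74 to 1.33, so for both genes it includes changes of 2-fold in either direction.

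**Figure D2:**
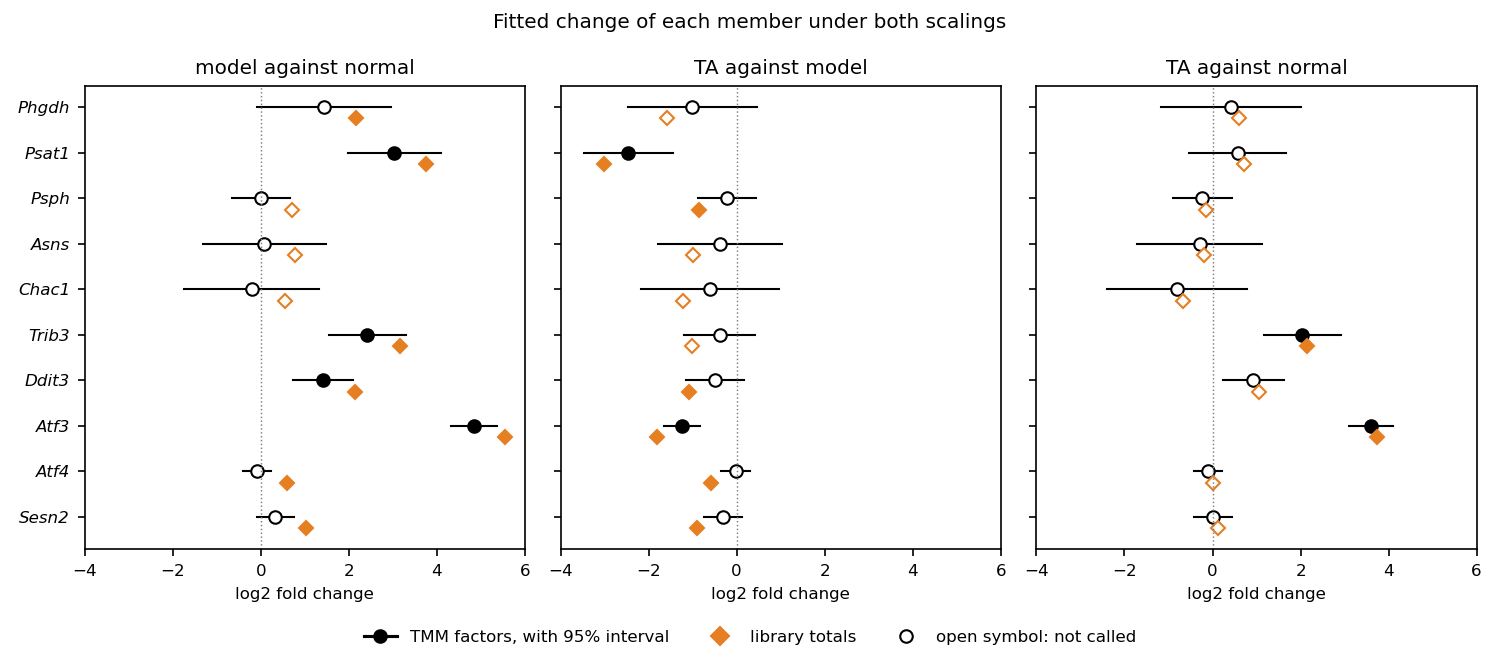
Fitted log2 fold change (x axis) of each gene (rows) in the 3 comparisons (panels); circles are the fit with TMM factors and its unadjusted 95% interval, diamonds the fit on library totals, and filled symbols are called at an adjusted p under 0.05. With TMM factors the calls are Psat1, Trib3, Ddit3 and Atf3 in the first panel, Psat1 and Atf3 in the second, and Trib3 and Atf3 in the third; the diamonds lie right of the circles in the first panel and left of them in the second.

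A ratio to Atf4 in the same library needs no scaling factor. The FPKM ratio of Atf3 to Atf4 was 0.0261, 0.0165 and 0.0159 in normal, 0.642, 0.459 and 0.673 in model, and 0.311, 0.250 and 0.195 in TA livers. These groups did not overlap. The ratio of Trib3 to Atf4 ran from 0.0491 to 0.0743 in normal, 0.177 to 0.677 in model and 0.247 to 0.314 in TA livers, with TA inside the model range. For Ddit3 it was 0.0376 to 0.0559, 0.0718 to 0.179 and 0.0826 to 0.109, again with TA inside the model range. Psat1 to Atf4 was 0.00528 to 0.0104, 0.0417 to 0.0853 and 0.00548 to 0.0201, where model livers stood alone above the rest. Sesn2 to Atf4 overlapped in all 3 groups, from 0.0748 to 0.159.

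**Figure D3:**
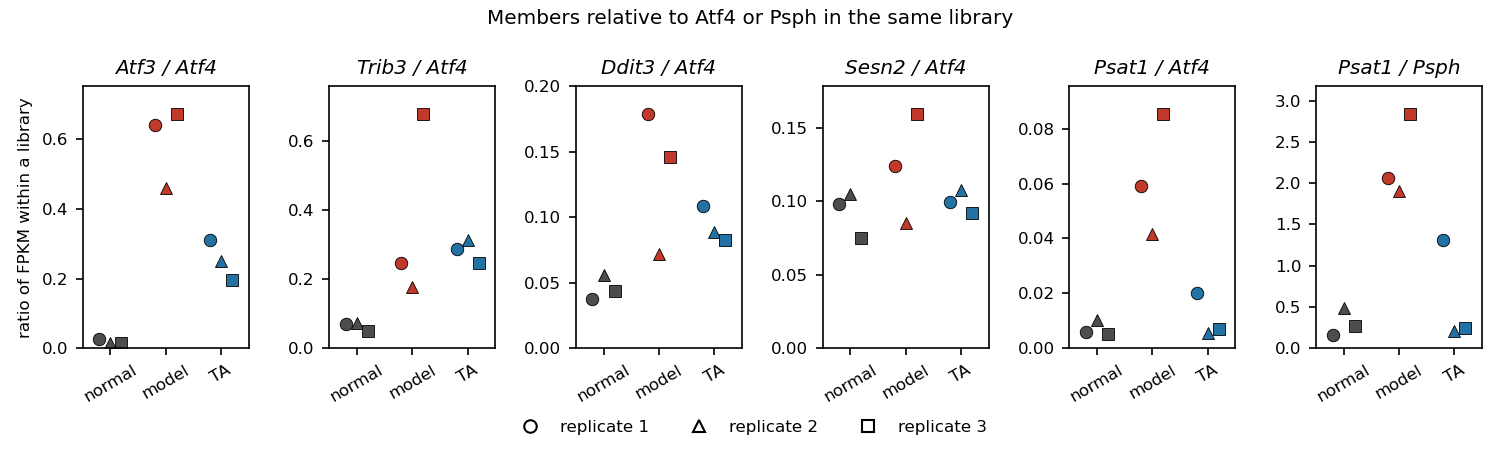
Ratio of deposited FPKM between 2 genes of the same library (y axis, linear, from 0, a different scale in each panel) for the 9 liver libraries by group (x axis); each symbol is 1 library. Model libraries exceed all others for Atf3 to Atf4 (0.459 to 0.673), Psat1 to Atf4 (0.0417 to 0.0853) and Psat1 to Psph (1.91 to 2.84), and mix with TA libraries for Trib3, Ddit3 and Sesn2.

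Within groups the 10 genes did not rank the libraries alike, but 2 libraries stood out. Model replicate 2 was the lowest model library for 8 of 10 genes (Asns and Atf4 were the exceptions), and model replicate 3 was the highest for 7. Model replicate 2 also had the smallest TMM factor of its group (1.19 against 1.41 and 1.44), summed cholangiocyte markers of 109 CPM against 458 and 520, and hepatocyte markers of 68782 CPM against 41601 and 44323. TA replicate 1 was the highest TA library for 7 genes, and it had the lowest hepatocyte (94588 CPM) and highest cholangiocyte sum (375 CPM) of its group. Mitochondrial genes took 4.92% of its counts, against 12.5% and 15.4% in the other 2 TA libraries, 7.36% to 11.6% in model and 6.45% to 7.80% in normal livers. Normal replicate 1 was the highest normal library for Asns, Chac1, Phgdh, Psph and Atf3. The part of tissue makeup and of the mitochondrial share in these orders was not tested.

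The promoter letters shown above did not separate the genes called higher on the diet from those not called. Atf3 and Trib3 hold TGATGNAA in the window and rose on the diet. Asns and Chac1 hold it too and did not pass the test, though their intervals were wide. Psat1 and Ddit3 rose without it, and Phgdh, Psph, Sesn2 and Atf4 have neither the letters nor a call.

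In the authors' deposited table for model against normal, Atf3 had a fold of 29.0 (adjusted p = 2.64e-48), Psat1 of 8.22 (adjusted p = 9.84e-07) and Ddit3 of 2.69 (adjusted p = 0.0138). The authors' deposited table gave Trib3 a fold of 5.41 with an adjusted p of 0.0866, so Trib3 is called here and not there. For TA against model, the authors' deposited table had Atf3 at 0.425 (adjusted p = 0.000303) and Psat1 at 0.177 (adjusted p = 0.000791), and no other member with an adjusted p under 0.05.

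Other targets of ATF4, 30 genes, showed rises and falls together. In model against normal 11 were called higher and 4 lower (median log2 0.61), against 25.4% and 22.6% of all genes. Slc7a11, the cystine carrier of the xCT exchanger, had 4 raw counts over the 3 normal livers, 626 over the model and 158 over the TA livers. Its mean level was 0.102 ± 0.040 CPM in normal, 9.71 ± 1.13 in model and 4.11 ± 1.42 in TA livers (SD, n = 3). It rose in the first comparison (adjusted p = 2.22e-06) and fell in TA against model (log2 -1.25 ± 0.29, adjusted p = 0.0127). The hepatokine gene Fgf21 went from 3.44 ± 2.35 to 54.4 ± 27.2 and 10.9 ± 3.58 CPM (log2 4.0 ± 0.53 and then -2.32 ± 0.47). The stress cofactor gene Nupr1 rose by 3.22 ± 0.39. Of the genes that fell, Cth, the cystathionine gamma-lyase of transsulfuration, changed by -1.19 ± 0.33, Vegfa by -0.62 ± 0.17 and Ppp1r15a, the phosphatase subunit that reverses eIF2 alpha phosphorylation, by -0.48 ± 0.14. Without TMM factors 19 were called higher and 0 lower, Cth lost its call (-0.50, adjusted p = 0.159) and the signs of Vegfa and Ppp1r15a turned (0.07 and 0.21). In TA against model 0 were called higher and 11 lower (median -0.22), against 11.8% and 11.1% of all genes. The smallest p was that of Jdp2 (-1.41 ± 0.28), a bZIP repressor. At an unadjusted p under 0.05 there were 5 higher and 12 lower by edgeR, and DESeq2 and limma-voom each called 1 higher and 11 lower. The count of 11 lower fell to 4 without model replicate 1, 3 without model replicate 3, 5 without TA replicate 2 and 4 without TA replicate 3, and the 4 lower in model against normal to 2 without model replicate 1.

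Genes that use or break down serine and glycine mostly went the opposite way to Psat1. Of 21 tested, 2 rose and 15 fell in model against normal (median -1.09), and 11 rose and 2 fell in TA against model (median 0.69). The shares of all genes were 25.4% and 22.6%, then 11.8% and 11.1%. Gnmt, which methylates glycine with S-adenosylmethionine, fell from 1762 ± 402 to 272 ± 62.2 CPM and stood at 921 ± 138 CPM in TA livers (log2 -2.69 ± 0.26 and then 1.76 ± 0.25). Srr, the serine racemase, changed by -1.71 ± 0.19, and Hao1, the glycolate oxidase of glyoxylate metabolism, by -1.83 ± 0.23 and then 1.21 ± 0.22. The exceptions were Gatm, which uses glycine for creatine synthesis (1.31 ± 0.23 and then -1.34 ± 0.23), and Sptlc2, a subunit of the serine palmitoyltransferase that starts sphingolipid synthesis (0.93 ± 0.16 and then -0.66 ± 0.16). Without TMM factors the counts were 3 higher and 11 lower, then 3 and 3. Leaving out model replicate 1 took the 11 rises in TA against model to 7, and leaving out model replicate 3 took the 2 falls to 1. Many of these enzymes are hepatocyte genes, and 8 of 8 hepatocyte markers fell in model against normal and 7 of 8 rose in TA against model, so a share of hepatocyte RNA and a change per cell cannot be told apart.

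Of 16 folate enzymes, 4 rose and 4 fell in model against normal (median 0.02), near the 25.4% and 22.6% of all genes. In TA against model 3 rose and 3 fell (median 0.00), against 11.8% and 11.1% of all genes. The mitochondrial Mthfd2 and Mthfd1l, which pass on serine's one-carbon unit, rose by 1.46 ± 0.42 and 2.40 ± 0.46 and fell by 1.62 and 1.55 in TA against model, where the mitochondrial Aldh1l2 changed by -1.88 ± 0.57. The cytosolic Aldh1l1 and Mthfd1 changed by -2.65 ± 0.32 and -1.57 ± 0.23, and then by 1.46 ± 0.30 and 1.1 ± 0.23. Fpgs, which adds glutamate to folates, changed by -1.63 ± 0.29, Mtrr, which keeps methionine synthase active, by 0.67 ± 0.23, and the mitochondrial folate carrier gene Slc25a32 by 0.75 ± 0.22 in TA against model (0.15, adjusted p = 0.566, without TMM factors). These counts were small and moved with single libraries. The 4 rises became 1 without normal replicate 1 or model replicate 3 and 2 without normal replicates 2 or 3 or model replicate 1. The 3 falls became 0 without model replicate 3 and 1 without model replicate 1 or TA replicate 3, and the 3 rises in TA against model became 6 without model replicate 2 and 5 without TA replicate 1. Without TMM factors 8 fell in TA against model.

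The other arms of the unfolded protein response did not rise with Atf3 and Ddit3. Of 20 genes of the ATF6 and IRE1 arms, 0 rose and 10 fell in model against normal (median -0.82), against 25.4% and 22.6% of all genes. The count higher was also 0 at an unadjusted p under 0.05 and by DESeq2 and limma-voom. TA against model gave 6 rises and 0 falls (median 0.68), against 11.8% and 11.1% of all genes. There DESeq2's Wald test called 13 higher and limma-voom 6, each with 0 lower. At an unadjusted p under 0.05 edgeR gave 14 higher and 0 lower. Hepatocyte markers moved the same way, with 8 of 8 lower in the first comparison and 7 of 8 higher in the second. The part of hepatocyte RNA in these changes was not tested. Calr, a chaperone of the ER, ran from 899 to 1096 CPM in normal, 449 to 563 in model and 759.7 to 997 in TA livers. Pdia6 and Edem1, which act in folding and degradation of ER proteins, changed by -1.13 ± 0.24 and -0.92 ± 0.20 in model against normal, and Herpud1 and Pdia4 by 1.21 ± 0.23 and 1.18 ± 0.25 in TA against model. Without TMM factors 1 rose and 0 fell in model against normal, and 1 rose and 1 fell in TA against model. Calr, Pdia6 and Edem1 then had adjusted p-values of 0.256, 0.148 and 0.377 in the first comparison, and Calr and Pdia4 of 0.359 and 0.067 in the second. The 10 falls became 6 without normal replicate 3 or model replicate 1. The 6 rises became 10 without normal replicate 1 or model replicate 2, 3 without normal replicate 2, model replicate 3 or TA replicate 1, and 2 without model replicate 1.

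Kinases and phosphatases of eIF2 alpha with its exchange factor eIF2B, 17 genes, gave 1 rise and 6 falls in model against normal (median -0.23), and 2 rises and 1 fall in TA against model. The shares of all genes were 25.4% and 22.6%, then 11.8% and 11.1%. Ppp1r15a, among the 6 falls, is also counted among the other ATF4 targets. Impact, an inhibitor of the amino acid sensor GCN2, rose by 0.71 ± 0.16, and the haem-regulated kinase gene Eif2ak1 gave -0.55 ± 0.13, a sign that turned without TMM factors (0.13). The 6 falls became 1 without model replicate 1 and 3 without normal replicate 3 or model replicate 3. The 2 rises became 1 without any one normal library and 0 without model replicates 1 or 3 or TA replicates 2 or 3, and the 1 fall became 0 without normal replicate 3, model replicates 1 or 3, or TA replicates 1 or 3. Without TMM factors 7 rose and 0 fell, then 0 rose and 7 fell.

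Among 17 bZIP partners and tribbles relatives, 7 rose and 2 fell (median 0.26), then 1 rose and 3 fell (median -0.13). Of all genes, 25.4% rose and 22.6% fell, then 11.8% rose and 11.1% fell. Trib2, a relative of Trib3, rose by 1.97 ± 0.32 and fell by 1.18 in TA against model. Cebpa, a hepatocyte bZIP factor, gave -0.58 ± 0.21, a sign that turned without TMM factors (0.09), and then 1.09 ± 0.21. The 7 rises became 4 without normal replicate 2 or model replicate 3. The 2 falls became 1 without normal replicates 1 or 2 or model replicate 3 and 0 without model replicate 1, and the 1 later rise became 2 without normal replicate 1. The 3 falls in TA against model became 0 without model replicate 3, and 1 without model replicate 1, TA replicate 2 or TA replicate 3. Without TMM factors 13 rose and 0 fell, then 1 rose and 11 fell.

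Of 14 glycolysis genes upstream of serine, 4 rose and 4 fell on the diet, near the 25.4% and 22.6% of all genes. In TA against model 0 rose and 3 fell, against 11.8% and 11.1% of all genes. At an unadjusted p under 0.05 edgeR gave 1 higher there, and DESeq2 and limma-voom called 1 and 0. Hk2 and Pfkp, early steps, rose by 2.78 ± 0.26 and 2.74 ± 0.25 and fell by 1.34 and 1.68 in TA against model. Of 8 macrophage markers, 6 were called higher and 0 lower on the diet, then 0 higher and 5 lower. The part of tissue makeup in the changes of Hk2 and Pfkp was not tested. Pgk1, which makes the 3-phosphoglycerate that Phgdh uses, fell by 1.03 in model against normal (-0.36, adjusted p = 0.0958, without TMM factors). The 4 falls became 2 without normal replicates 1 or 2 or model replicate 3, 7 without model replicate 2 and 0 without TMM factors, where 7 fell in TA against model. The 0 rises there became 1 without model replicate 2 or TA replicate 1. In glutathione turnover 3 of 10 rose and 4 fell, then 3 rose and 1 fell, against the same shares of all genes. Slc7a11, counted above among other ATF4 targets, was among the rises on the diet and was the 1 fall in TA against model. Gclc, the catalytic subunit of the rate-limiting enzyme, fell by 1.20 (-0.50, adjusted p = 0.117, without TMM factors). The 3 rises on the diet became 1 without normal replicate 3 or model replicates 1 or 3, the 3 later ones 0 without model replicates 1 or 3 and 1 without TA replicates 2 or 3, and the 1 fall 0 without model replicate 1. Without TMM factors 5 rose and 0 fell, then 0 rose and 2 fell.

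Among relatives of Sesn2 and TORC1 regulators 4 of 16 rose and 2 fell, then 2 rose and 1 fell, with rises near the share among all genes. The TORC1 inhibitor genes Ddit4l and Ddit4 changed by 3.42 ± 0.54 in model against normal and by -1.60 ± 0.42 in TA against model respectively. The 2 later rises became 1 without model replicates 1 or 3 or TA replicate 2, and the 1 fall 0 without model replicates 1 or 3 or TA replicate 3 and 2 without model replicate 2. Without TMM factors 9 rose and 0 fell, then 0 rose and 5 fell. Among asparagine and glutamine enzymes, beside Asns, 1 of 10 rose and 6 fell, then 3 rose and 1 fell. The shares of all genes were 25.4% and 22.6%, then 11.8% and 11.1%. Aspg, an asparaginase, gave -1.47 ± 0.24 and then 1.03 ± 0.24. The 3 later rises became 6 without model replicate 2, 5 without TA replicate 1 and 1 without model replicate 3. Without TMM factors 1 rose and 2 fell, then 1 rose and 2 fell, and the later rise of Aspg lost its call (0.44, adjusted p = 0.0981).

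**Figure D4:**
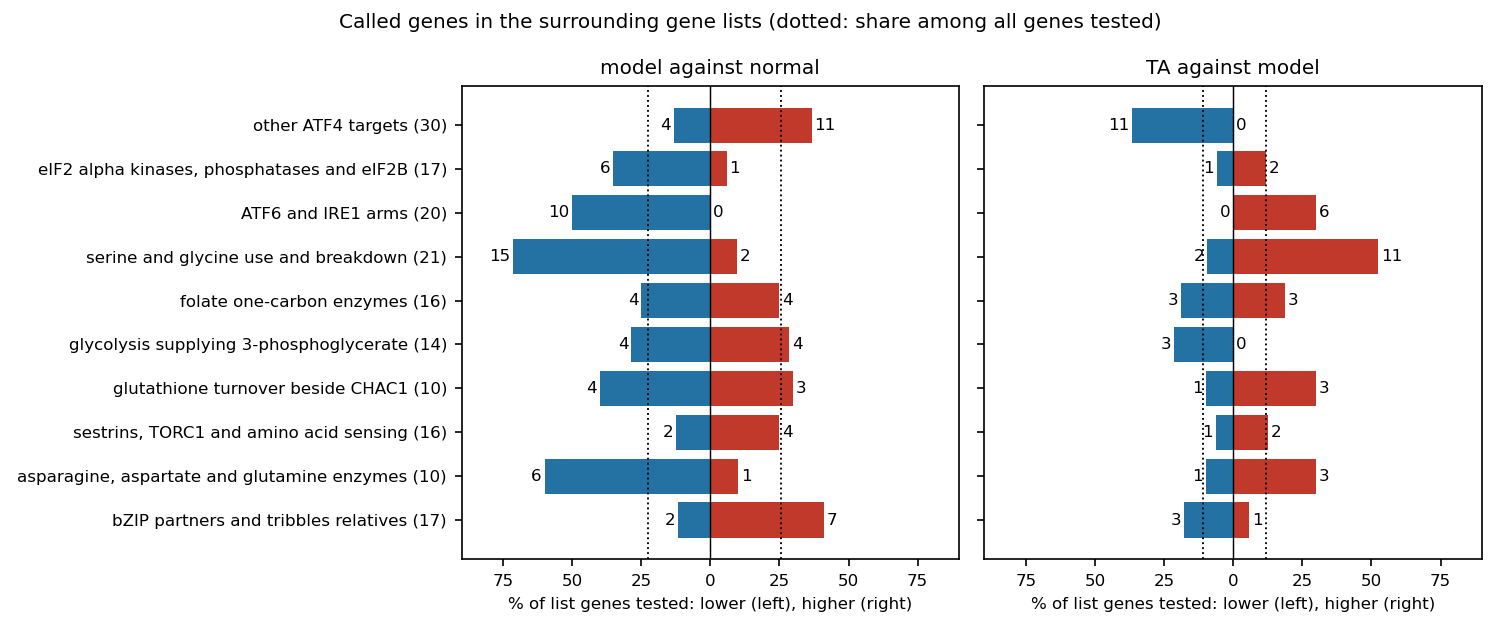
Share of each gene list called lower (bars to the left) and higher (bars to the right) in model against normal and TA against model, in percent of the list genes tested; the number tested stands in brackets, the number called at the bar end, and dotted lines mark the share among all genes (25.4% and 22.6%, 11.8% and 11.1%). The other ATF4 targets reach 11 higher and then 11 lower, and the serine and glycine genes 15 lower and then 11 higher.

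The genes most like each member over the 9 libraries, by root mean square difference of centred log2 CPM, lay outside this set. For Atf3 they were Aqp7 and Arl11 (0.26 and 0.27), for Psat1 Adamts9 and Tubb2b (0.35 and 0.38) and for Trib3 Cacnb3 and Gm3776 (0.33 and 0.34). For Ddit3 they were Mex3d and Unc5a (0.13 and 0.19), for Phgdh Itga3 and Fam107a (0.31 and 0.34) and for Sesn2 Gatad2b and Rbak (0.10 and 0.11). Atf4 and Psph had close neighbours, as flat genes do, in Fip1l1 and Upf2 (0.07 each) and in Zfp59 and Tsen15 (0.13 and 0.14). Asns and Chac1 had none closer than Zcchc18 and Gm49396 (0.47 and 0.54) and Map1a and Reck (0.53 each). The nearest fellow member ranked between 116 (Psph for Asns) and 3978 (Sesn2 for Atf4) among all genes. Only 10 of the 13200 genes searched are members, so neighbours outside the set were likely from the numbers alone. The neighbours therefore do not show whether the members move together.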

How the data were processed

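The deposited table gives raw read counts and FPKM values made by the authors, per the file headers; FPKM was used only for ratios within a library. The authors' deposited comparison tables give a fold (a ratio of group means) and adjusted p-values, made with DESeq per the file names. Build mm9 is named per the submitters' processing notes; the aligner, counter and strand setting are not given in the sources used here. Listed coordinates did not match GRCm38, so gene positions are those of GENCODE M21, while promoter windows use RefSeq starts. 1 emptied line was not used.

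Counts were fitted with edgeR 4.0.16 (R 4.3.3): filterByExpr (minimum count 10, total 15), TMM factors, 1 quasi-likelihood fit of all 9 libraries, Benjamini-Hochberg over 13200 genes, calls at an adjusted p under 0.05. The code was tested on simulated data. Alternatives used DESeq2 1.42.0 and limma 3.58.1. Same-numbered libraries did not deviate together, so no block was used. Members and the 10 lists (166 genes) were chosen with earlier results of these data known. Some genes, among them Slc7a11 and Ppp1r15a, stand in more than 1 list, so the list counts are not separate. Named list genes are the called genes with the smallest p in each direction, up to 3 per list and comparison. Distances use log2 CPM (prior count 2). 1 gene that this rule names is not reported here.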

Additional observations from a re-analysis of the deposited data

How the results depend on the processing

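The calls of Atf3, Psat1, Trib3 and Ddit3 in model against normal, of Atf3 and Psat1 in TA against model, and of Atf3 and Trib3 in TA against normal held under all 17 alternatives. Of 510 pairs of a member's change and an alternative, 464 kept direction and side of the threshold and 0 lost a call. A further 12 gained a call with the same sign, and 34 turned sign, all of them changes not called in the main fit. Among the 34, Atf4 in model against normal also gained a call, on library totals (0.60, adjusted p = 0.0067 by edgeR's quasi-likelihood test). Without TMM factors 7269 genes were called higher and 831 lower in model against normal (89.7% higher, against 52.9% of calls with them), with 7 members higher. TA against model then gave 401 and 5721 (6.55% higher, against 51.5%), with 6 members lower, and TA against normal 416 lower instead of 664. DESeq2's Wald test gave 1056 lower in TA against normal. With a replicate block this was 434. The numbers share only a label (1 of 9 same-number pairs had a correlation over 0.1, range -0.202 to 0.115), and the block took the calls from 6344, 3031 and 2081 to 5711, 2294 and 1575. The longer site spelling left 0 members instead of 4. Turned signs, the cause of which was not tested, were in model against normal Chac1 0.55 and Atf4 0.60 on library totals, and Psph -0.00337 with no filter and -0.00642 with the block. In TA against normal they were Sesn2 -0.00984 with DESeq2 size factors and -0.00969 with its Wald test, Atf4 0.00484 on library totals and Asns 0.024 with limma-voom.

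Leaving out 1 library at a time gave 656 to 2074 higher and 702 to 1719 lower genes in TA against model, and 782 to 1595 and 310 to 872 in TA against normal. Members' log2 changes ranged, in model against normal, from -1.55 to 0.50 for Chac1, -0.36 to 1.43 for Asns, -0.13 to 0.24 for Psph and -0.16 to 0.00486 for Atf4. In TA against model they ranged from -1.07 to 0.74 for Chac1, -0.69 to 0.38 for Trib3 and -0.0687 to 0.0511 for Atf4. In TA against normal they ranged from -0.31 to 0.91 for Psat1, -0.36 to 1.02 for Phgdh, -0.73 to 1.06 for Asns, -0.49 to 0.0157 for Psph and -0.0382 to 0.0973 for Sesn2. List counts without single libraries or without TMM factors were added after seeing the data. Phgdh had as few as 5 counts in a library, and Phgdh, Chac1 and Asns had the largest standard errors of the members.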
